A study of Mus musculus with 12 samples.

Results

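The replication-dependent histone genes were examined in the leukemic stem and progenitor cells of a mouse chronic myeloid leukemia (CML) model. The genes were taken by symbol: all features named Hist1h, Hist2h, Hist3h or Hist4h with a value above 0 in at least 1 of 12 libraries. Of 70 such symbols, 65 were above 0, out of 16775 genes above 0 in all. They comprise 6 genes for linker histone H1, 17 for H2A, 18 for H2B, 12 for H3 and 12 for H4. By cluster, 52 lie in Hist1, 10 in Hist2, 2 in Hist3 and 1 is Hist4h4. The 5 symbols at 0 in every library were Hist1h2aa, Hist1h2aj, Hist1h2al, Hist1h4m and Hist3h2bb-ps. The genes nearest to that limit were Hist1h1t, Hist1h2ba and Hist2h3c1, with means of 0.0139, 0.0281 and 0.0424 RPKM over the 12 libraries.

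All libraries came from C57BL/6 mice with CML-like disease, and each was made from 100 sorted cells of bone marrow and spleen. In this model, bone marrow of 5FU-treated donors was transduced with a BCR-ABL1 retrovirus and given to lethally irradiated wild-type recipients. The donors carried the G0 marker (G0M), a fluorescent reporter of quiescence placed in Rosa26 and switched on by Vav1-Cre in blood cells. The cells were BCR-ABL1+ CD27+ KSL cells (lineage-negative, Sca1+ and c-Kit+). DP cells were G0M+ and SP cells G0M-, both from vehicle-treated mice, and IMDP and IMSP cells were the same populations from mice that received imatinib by gavage once a day. Imatinib blocks the kinase activity of BCR-ABL1. Each of the 4 groups had 3 libraries. Whether these came from separate mice is not stated, so p-values measure the spread between the libraries, which may be technical. The populations were thus sorted on a marker of the cell cycle state. Transgene, irradiation and leukemia were shared by all groups, and treatment could not be told apart from library numbering, since the imatinib libraries carry numbers 1 to 6 and the vehicle libraries 7 to 12.

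Replication-dependent histone genes supply the proteins that package newly made DNA. H2A, H2B, H3 and H4 form the nucleosome core, and H1 binds the linker DNA between nucleosomes. Their mRNAs accumulate in S phase and are degraded when replication ends. They are the metazoan mRNAs that end in a conserved stem-loop instead of a poly(A) tail. The stem-loop is bound by SLBP and used for 3' end processing, translation and decay.

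The stem-loop is shown because it defines this kind of gene. A stem of 6 paired bases and a loop of 4 was found after the stop codon in the GENCODE M21 transcripts (GRCm38) of 43 of the 65 genes, 21 to 58 bases after it. The search covered only these transcript models. The forms differed between classes. A single form was shared by 26 genes of H1, H2A, H2B and H3, another was carried by 6 H4 genes, and Hist1h4b and Hist1h4j carried a form of their own. Capitals mark the loop, and each sequence is written 5' to 3' as DNA.
Hist1h1d (H1, form of 26 genes, chr13:23555787-23555802, plus strand): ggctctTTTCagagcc
Hist1h2bk (H2B, form of 6 genes, chr13:22036300-22036315, plus strand): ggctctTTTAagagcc
Hist1h4d (H4, form of 6 genes, chr13:23581950-23581965, plus strand): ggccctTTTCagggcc
Hist1h4b (H4, form of 2 genes, chr13:23757366-23757381, plus strand): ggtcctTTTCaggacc
The median log2 fold change of DP against SP cells was -2.27 over the 23 tested genes with the form of Hist1h1d, -2.96 over 5 with that of Hist1h2bk and -2.59 over 6 with that of Hist1h4d. Of the 55 tested genes, 39 had a stem-loop in their transcript models. Of these, 18 were lower in DP than in SP cells, with a median of -2.45, beside 10 of 16 and -2.61 for the rest. Of all genes tested, 1.98% were lower. In IMDP against IMSP, 37 of 39 were lower with a stem-loop and 12 of 16 without, against 23.3% of all genes. The medians there were -3.74 and -4.14.

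The promoters of 4 genes, for H1, H2B, H3 and H4, are shown because the members moved together across classes while their promoter elements differ. The 150 bases before the RefSeq start (GRCm38.p6) are given 5' to 3' on the gene's strand. Capitals mark the letters TATAAA (the TATA box), CCAAT (the CCAAT box), ATTTGCAT (the octamer) and AAACACA (an element of H1 promoters), on either strand.
Hist1h1b (chr13:21780626-21780775, minus strand): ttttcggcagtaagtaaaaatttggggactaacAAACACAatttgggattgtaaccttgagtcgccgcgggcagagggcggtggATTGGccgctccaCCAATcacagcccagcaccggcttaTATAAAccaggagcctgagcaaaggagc
Hist1h2bm (chr13:21721894-21722043, plus strand): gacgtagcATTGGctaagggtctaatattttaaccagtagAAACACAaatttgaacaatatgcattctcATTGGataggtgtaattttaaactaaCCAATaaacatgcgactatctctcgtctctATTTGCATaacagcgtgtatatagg
Hist1h3c (chr13:23745522-23745671, minus strand): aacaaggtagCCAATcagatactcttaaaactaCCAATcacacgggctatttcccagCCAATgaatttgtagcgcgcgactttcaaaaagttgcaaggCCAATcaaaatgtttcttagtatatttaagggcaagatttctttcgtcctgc
Hist1h4k (chr13:21750554-21750703, minus strand): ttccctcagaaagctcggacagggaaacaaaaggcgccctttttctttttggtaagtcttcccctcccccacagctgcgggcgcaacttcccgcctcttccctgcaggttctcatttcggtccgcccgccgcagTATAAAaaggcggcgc
Windows of 300 bases, 250 before and 50 after the start, were held for 60 members. CCAAT was found in 52 of them (86.7%, against 37.4% of 32817 promoters in the table). Every H1, H2A, H2B and H3 window held it, but only 3 of 11 H4 windows. TATAAA was found in 33 windows (55.0%, against 13.6%). The octamer was found in 12 (20.0%, against 1.74%), 6 of 17 for H2A and 6 of 16 for H2B, and in none of the others. Windows of neighbouring genes on opposite strands can overlap, so the same site can count for both, as for Hist1h2ae and Hist1h2bg. AAACACA was found in 8 (13.3%, against 7.19%), among them 5 of 6 H1 windows. The medians of tested genes with and without an element are given side by side, with no test. In DP against SP cells the median was -2.42 with TATAAA (29 genes) and -2.61 without (22 genes), and -2.45 with CCAAT (43 genes) and -2.49 without (8 genes). With the octamer it was -2.51 (10 genes) and without it -2.45 (41 genes), and with AAACACA -2.63 (6 genes) and without it -2.45 (45 genes). The calls were less even, with 15 of 29 genes lower with TATAAA and 10 of 22 without. They were 23 of 43 with CCAAT and 2 of 8 without. With the octamer 8 of 10 were lower and 17 of 41 without, and with AAACACA 5 of 6 and 20 of 45 without. Of all genes tested, 1.98% were lower. In IMDP against IMSP the medians with and without were -3.76 and -3.998 for TATAAA, -3.77 and -4.40 for CCAAT, -4.03 and -3.88 for the octamer, and -4.21 and -3.88 for AAACACA. In that comparison 23.3% of all genes were lower, as were 26 of 29 genes with TATAAA and 19 of 22 without. For CCAAT the calls were 38 of 43 and 7 of 8, and for the octamer 10 of 10 and 35 of 41. For AAACACA they were 6 of 6 and 39 of 45. These matches are descriptions of sequence, and no factor was measured.

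The authors deposited RPKM, reads scaled to transcript length and library total, and the total behind the values was 11.4 to 20.6 M reads per library. The cDNA was primed with not-so-random primers and not from poly(A), so mRNA without a tail could be read. The reads on the histone genes came to 1629 to 2584 per DP library, 7959 to 15342 per SP library, 697 to 920 per IMDP library and 6899 to 15599 per IMSP library. A tested member had a median of 51 reads over the 3 DP libraries and 326 over the SP libraries, against 16 for IMDP and 326 for IMSP, and 20 of them had under 10 reads over the IMDP libraries. Precision from reads covers counting error only. Of the 65 genes, 55 reached 1 RPKM in at least 3 libraries and were tested among 10072 genes with limma on log2(RPKM + 0.1). The added 0.1 shrinks fold changes of low genes. A mean of logs can also exceed the ratio of mean RPKM where some libraries hold no reads. Fold changes of low genes can thus be off in both directions. A gene can pass this filter through the group where it is high, so counts over the 55 describe these genes and do not support a difference. Without the filter, all 65 genes enter, and those counts are given too.

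Histone RNA was lower in DP than in SP cells in every class. The summed RPKM of the 65 genes was 280, 161 and 181 in the 3 DP libraries and 1296, 903 and 1020 in the 3 SP libraries, means of 207 ± 64.2 and 1073 ± 202 (SD, n = 3). The groups did not overlap, and the SP mean was 5.18 times the DP mean. In sorted populations, fewer cells with histone mRNA and less histone mRNA per cell cannot be told apart. Of the 55 tested genes, 28 were lower in DP cells at an adjusted p under 0.05 and 0 higher, where 1.98% of all genes tested were lower and 0.288% higher. The libraries did not overlap, with DP lower, for 47 of the 55, against 12.7% of all genes. No member was higher at an unadjusted p under 0.05 in this or any other comparison. The median log2 fold change was -2.61, beside -0.02 over all genes. Without the filter, 25 of 65 were lower and 0 higher, against 1.03% and 0.173% of 16775 genes. Without SP library 1, the highest of its group, 18 were lower, while lower calls over all genes went from 199 to 110. With neighbouring library numbers as a block, 45 were, but calls then rose among all genes too, to 5.56% lower and 4.17% higher.

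**Figure D1:**
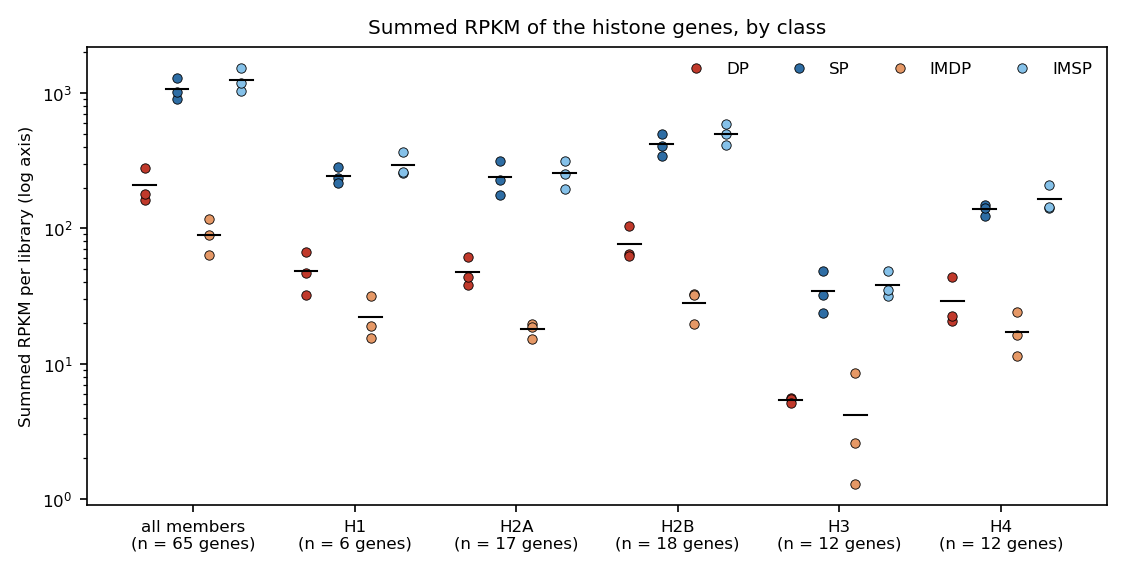
Summed RPKM of the histone genes per library, on a log axis, for all members and for each class; points are libraries and bars the means of 3. The DP and IMDP libraries lie below all SP and IMSP libraries in every class, and the DP sums over all members run from 161 to 280 against 903 to 1296 in SP.

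The same comparison under imatinib gave a larger ratio. The sum was 117, 89.0 and 63.1 RPKM in the IMDP libraries and 1533, 1041 and 1183 in the IMSP libraries, means of 89.6 ± 26.9 and 1252 ± 253 (SD, n = 3). The IMSP mean was 14.0 times the IMDP mean, and the groups did not overlap. Of the 55 genes, 49 were lower in IMDP cells and 0 higher, where 23.3% of all genes were lower and 2.37% higher. The libraries did not overlap, with IMDP lower, for 50 of the 55, against 32.8% of all genes. The median of the 55 was -3.76, beside -0.25 over all genes. Without the filter, 50 of 65 were lower and 0 higher, against 11.2% and 1.60% of all genes. With each library scaled to the same median, 940 genes were lower and 647 higher in place of 2342 and 239, and 47 members were lower. The share of reads on listed features was 25.2% to 30.2% in the IMDP and 31.7% to 36.1% in the IMSP libraries. With these reads as the denominator, the log2 ratio of the sums was -3.49, beside -3.80 as deposited. Averaged over both treatments, 53 of 55 members were lower in G0M+ cells and 0 higher, against 21.0% and 5.32% of all genes. With the same scaling these were 1248 and 1131 genes in place of 2112 and 536, and 49 members were lower. The 2 that did not pass as deposited were Hist1h2br and Hist1h3h, named here after their values were seen.

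**Figure D2:**
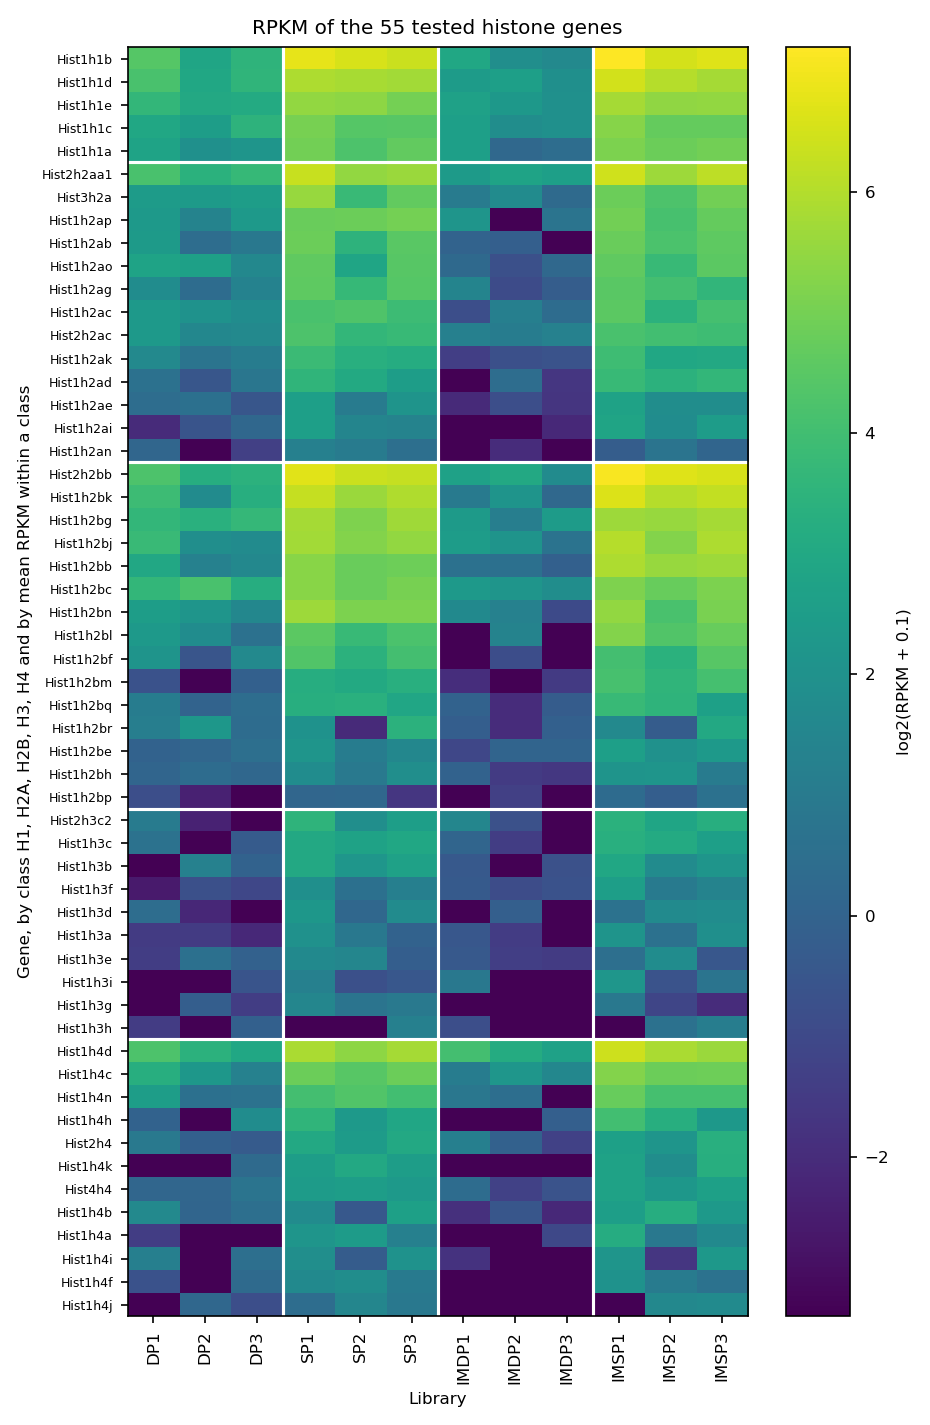
RPKM of the 55 tested histone genes on the log2(RPKM + 0.1) scale, with 1 row per gene and 1 column per library; rows are ordered by class and by mean. The SP and IMSP columns are brighter than the DP and IMDP columns in nearly every row, and 4 of the rows are at 0 in all IMDP libraries.

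Markers of the gate and of other cell types were read in the same libraries. The summed gate markers Ly6a, Kit, Cd27 and Cd34 were at 87.8 to 106 RPKM in DP and 70.9 to 86.5 in SP cells, against 82.8 to 143 for IMDP and 97.1 to 112 for IMSP, and only Ly6a passed, higher in IMDP than in IMSP cells. The 8 mast cell and basophil markers summed to 80.1 to 295 in DP against 20.1 to 21.6 in SP cells, and to 25.4 to 183 in IMDP against 16.1 to 26.4 in IMSP cells. Of 7 tested, 2 were higher in DP cells (Cma1 and Prss34) and 1 in IMDP cells (Prss34), and Cma1 was at 0 in all SP and IMSP libraries. At an unadjusted p under 0.05, 5 of 7 were higher in DP against SP and 2 in IMDP against IMSP, with 0 lower. The 7 neutrophil markers summed to 50.8 to 1169 in DP and 316 to 2190 in SP cells, against 60.7 to 232 for IMDP and 419 to 1782 for IMSP, and 0 of 4 tested passed with limma, with 0 at an unadjusted p under 0.05 in DP against SP and 3, all lower, in IMDP against IMSP. The 6 macrophage markers summed to 3.34 to 13.2 in DP and 2.06 to 4.57 in SP cells, which overlapped, with 0 of 4 tested passing with limma and 2 higher at an unadjusted p under 0.05. Under imatinib they summed to 10.1 to 13.6 in IMDP and 3.05 to 8.89 in IMSP cells, with 2 of 4 higher. The 6 erythroid markers summed to 204 to 269 in DP against 95.5 to 178 in SP cells, with 0 of 4 tested passing with limma or at an unadjusted p under 0.05. Under imatinib the sums overlapped, at 65.6 to 234 in IMDP and 24.8 to 110 in IMSP cells, with 1 of 4 higher with limma (Hbb-bt) and 1 lower at an unadjusted p under 0.05 alone. The 4 megakaryocyte markers overlapped, with 0 of 4 tested passing with limma or at an unadjusted p under 0.05, and the 5 B and T cell markers summed to at most 1.63 RPKM. The part of these cells in the histone differences was not tested.

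All 5 tested H1 genes were lower in DP and in IMDP cells, against 1.98% and 23.3% of all genes. Hist1h1b (chr13:21779883-21780625, 1 exon), which encodes the H1.5 subtype, had the highest mean of all members. It was at 21.5, 7.16 and 11.3 RPKM in DP and 113, 95.6 and 81.6 in SP cells, and with imatinib 7.70, 3.56 and 2.97 in IMDP and 147, 92.3 and 102 in IMSP cells. No G0M+ library reached the level of a G0M- library. Its log2 fold change was -2.98 ± 0.40 (SE) in DP against SP (limma, adjusted p = 0.00458), and -4.65 ± 0.40 when IMDP was compared with IMSP (limma, adjusted p = 4.5e-05). Hist1h1d and Hist1h1e, further somatic H1 genes, stood at -2.27 (limma, adjusted p = 0.00384) and -2.03 (adjusted p = 0.00216) in DP against SP. Hist1h1c, which is known to give polyadenylated transcripts too, changed least in the class, by -1.67 and, in IMDP against IMSP, by -2.76 (limma, adjusted p = 0.000153). The testis gene Hist1h1t was at or near 0 in all libraries.

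Among the H2A genes, 7 of 13 tested were lower in DP cells and 13 of 13 in IMDP cells, against 1.98% and 23.3% of all genes. Hist2h2aa1 (chr3:96245497-96246082) was the highest. It lay at 18.3, 10.5 and 13.1 RPKM in DP and 80.2, 45.1 and 48.6 in SP cells, and with imatinib 5.29, 6.77 and 6.05 in IMDP and 87.6, 50.5 and 70.4 in IMSP cells. The populations did not overlap in either treatment. The log2 fold changes were -2.04 ± 0.27 (limma, adjusted p = 0.00447) and -3.47 ± 0.27 (limma, adjusted p = 3.31e-05). All 50-base windows of its neighbour Hist2h2aa2 occur in another histone gene, and that copy was above 0 in only 2 libraries, so their values cannot be divided between them. Hist1h2ap was at 5.08, 2.54 and 5.08 RPKM in DP and 28.0, 28.8 and 32.4 in SP cells. These libraries did not overlap, yet its fold change of -2.84 ± 0.99 did not pass (limma, adjusted p = 0.23), while that of -4.73 in IMDP against IMSP did (limma, adjusted p = 0.00736). Hist2h2ac was closest to no difference in its class under imatinib, at -2.81 ± 0.22 (limma, adjusted p = 3.31e-05). It was at 2.32, 2.01 and 2.40 RPKM in IMDP cells and 17.9, 16.0 and 15.1 in IMSP cells.

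The H2B genes held the largest mean share of the sum in every group, and the 3 largest falls in IMDP against IMSP. In DP cells 9 of 15 tested were lower, and in IMDP cells 14 of 15, against 1.98% and 23.3% of all genes. Hist2h2bb (chr3:96269752-96270132), the highest H2B gene, was at 19.0, 9.33 and 10.8 RPKM in DP and 105, 81.3 and 78.0 in SP cells, and with imatinib 6.44, 8.18 and 3.23 in IMDP and 136, 105 and 95.2 in IMSP cells. Its G0M- libraries stood far above the rest. The fold changes were -2.80 ± 0.33 (limma, adjusted p = 0.0026) and -4.29 ± 0.33 (limma, adjusted p = 3.31e-05). Hist1h2bm, the gene with the octamer promoter printed above, was near 0 in G0M+ cells. It was at 0.529, 0 and 0.840 RPKM in DP and 9.26, 8.42 and 9.99 in SP cells, and with imatinib 0.160, 0 and 0.244 in IMDP and 17.7, 11.8 and 17.0 in IMSP cells. Its log2 fold changes were -4.58 ± 0.68 (limma, adjusted p = 0.0056) and -6.21 ± 0.68 (limma, adjusted p = 0.000204). Hist1h2bl and Hist1h2bf changed by -6.54 and -6.46 in IMDP against IMSP (limma, adjusted p = 0.00124 and 0.000232). In each of these, IMDP libraries 1 and 3 were at 0 and library 2 at 2.50 and 0.468 RPKM.

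The exception in this class, by the deposited values, was Hist1h2br. It was at 2.14, 4.70 and 1.21 RPKM in DP and 4.00, 0.136 and 10.8 in SP cells, so that the SP libraries enclosed the DP libraries. Its fold changes were 0.14 ± 1.22 in DP against SP (limma, adjusted p = 0.971), and -2.21 ± 1.22 when IMDP was compared with IMSP (limma, adjusted p = 0.196). Of its 50-base windows, 88.7% occur in another histone gene. Its partner in sequence, Hist1h2bq, has 97.3% of its windows shared and was lower in DP (-2.66, limma, adjusted p = 0.00965) and in IMDP cells (-4.07, limma, adjusted p = 0.000247). In the SP libraries Hist1h2bq was at 9.72, 10.2 and 7.41 RPKM, where Hist1h2br was at 4.00, 0.136 and 10.8. How the mapping divided reads between such copies is not stated, so their values cannot be divided between them. The exception therefore holds for the deposited value of Hist1h2br and not for the pair.

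The H3 genes were the lowest class. Their 12 genes summed to 34.6 ± 12.5 RPKM (SD, n = 3) in SP cells, against 417 ± 79.5 for the 18 H2B genes. They also had the lowest share of calls, with 1 of 10 tested lower in DP and 6 of 10 in IMDP cells. Of all genes, 1.98% and 23.3% were lower. Yet the H3 median of -2.70 in DP against SP was the lowest of the classes. In IMDP against IMSP the H3 median of -2.99 was closer to 0 than the -3.77 to -4.07 of the others. The whole class had 48, 44 and 36 reads in the DP and 63, 23 and 14 in the IMDP libraries. Few reads thus limit the falls that H3 genes can show. Hist1h3c (chr13:23744973-23745602) was at 1.46, 0 and 0.704 RPKM in DP and 8.00, 6.63 and 7.58 in SP cells, and with imatinib 0.968, 0.280 and 0 in IMDP and 9.96, 8.61 and 6.03 in IMSP cells. The populations did not overlap. Its fold change of -3.90 ± 0.92 in DP against SP missed the threshold (limma, adjusted p = 0.0515), and that of -4.56 ± 0.92 in IMDP against IMSP passed it (limma, adjusted p = 0.00619). Hist2h3c2, the highest H3 gene, was at 1.97, 0.0985 and 0 RPKM in DP and 11.3, 3.54 and 5.95 in SP cells (-4.19 ± 1.16, limma, adjusted p = 0.107). Hist1h3b showed -3.33 in DP against SP (limma, adjusted p = 0.148), and -3.74 when IMDP was compared with IMSP (limma, adjusted p = 0.0201). Hist1h3e was closest to no difference, at -1.71 in IMDP against IMSP (limma, adjusted p = 0.0836), with overlapping libraries. The only H3 gene called in DP against SP was Hist1h3f, at -2.69 (limma, adjusted p = 0.0190).

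For the H4 genes, 6 of 12 were lower in DP and 11 of 12 in IMDP cells, against 1.98% and 23.3% of all genes. Hist1h4d (chr13:23581598-23582735) was the highest. It was at 18.9, 10.8 and 7.71 RPKM in DP and 58.8, 43.1 and 55.5 in SP cells, and with imatinib 16.4, 8.77 and 6.42 in IMDP and 83.5, 57.8 and 49.8 in IMSP cells. DP and IMDP libraries overlapped here, unlike those of Hist2h2bb. The fold changes of Hist1h4d were -2.15 ± 0.36 (limma, adjusted p = 0.00769) and -2.66 ± 0.36 (limma, adjusted p = 0.000654), the latter the smallest fall in the class. Hist1h4c changed by -2.45 (limma, adjusted p = 0.00733) and -3.37 (limma, adjusted p = 0.000301), and Hist1h4n by -2.86 (limma, adjusted p = 0.153) and -4.99 (limma, adjusted p = 0.00309). Hist1h4k, whose promoter is printed above, was at 0, 0 and 1.16 RPKM in DP, 5.70, 8.07 and 5.63 in SP, and 6.54, 3.44 and 9.61 in IMSP cells. It fell most of all members in DP against SP, with a log2 fold change of -4.80 ± 0.79 (limma, adjusted p = 0.00733). All 3 IMDP libraries were at 0, and against a floor of 3 reads over that group Hist1h4k was at least 39.8-fold lower than in IMSP cells. Hist1h4a changed by -4.64 in DP against SP (limma, adjusted p = 0.00805). Hist1h3g, Hist1h4f and Hist1h4j were at 0 in all IMDP libraries as well.

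**Figure D3:**
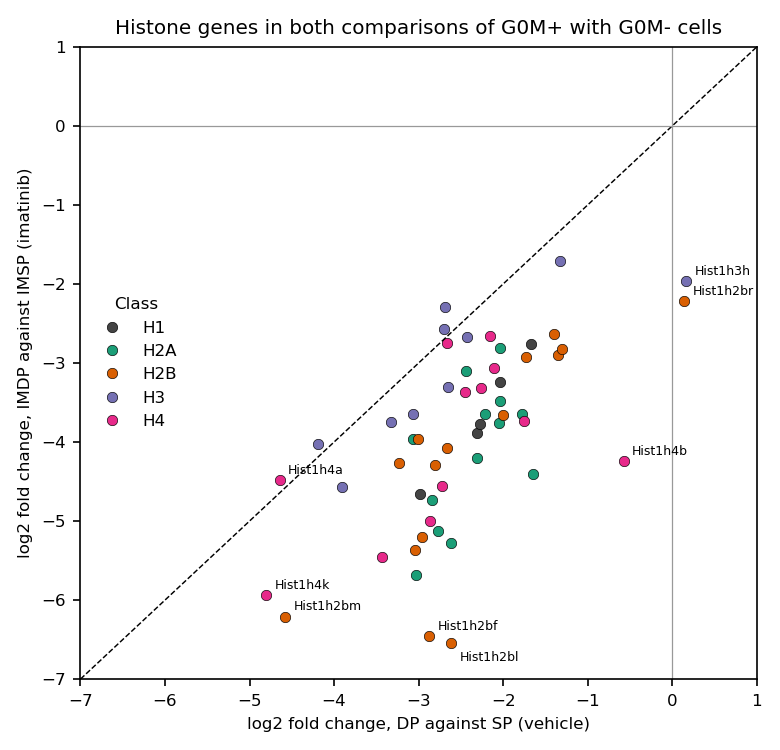
Log2 fold change of each tested histone gene in DP against SP (x axis) and in IMDP against IMSP (y axis), colored by class; the dashed line marks equal values. All 55 genes lie below 0 on the y axis and 53 on the x axis, and 51 lie below the dashed line, with Hist1h2br and Hist1h3h at the right.

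Imatinib was then compared within each population. In G0M+ cells, the IMDP sum was lower than the DP sum, 63.1 to 117 against 161 to 280 RPKM, with no overlap. Of the 55 genes, 3 were lower and 0 higher, against 0.338% and 0.0298% of all genes. The libraries did not overlap, with IMDP lower, for 20, against 19.0% of all genes. The median was -1.27, beside -0.17 over all genes. The 3 genes were Hist1h2ak (-2.05 ± 0.32, limma, adjusted p = 0.0379), Hist1h2bc (-1.58 ± 0.24, limma, adjusted p = 0.0338) and Hist1h2bg (-1.54 ± 0.29, limma, adjusted p = 0.0499). Hist1h2bc was at 12.5, 18.2 and 9.43 RPKM in DP and 5.00, 4.34 and 3.51 in IMDP cells. These calls depended on the fit: the count was 0 with each library scaled to the same median, 0 with only these groups, 7 with the replicate block and 0 to 9 when 1 library was left out.

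In G0M- cells no member passed. The IMSP sum was 1041 to 1533 RPKM and the SP sum 903 to 1296, overlapping ranges with a ratio of means of 1.17. By limma, 0 members were lower or higher, as were 0% of all genes in each direction. At an unadjusted p under 0.05 there were also 0 members, where 2.29% of all genes were lower and 6.10% higher. The IMSP libraries lay above all SP libraries for 3 of the 55 genes, Hist1h2bb, Hist1h2bm and Hist1h4c, against 11.1% of all genes. The median was 0.23, beside 0.08 over all genes. Averaged over both populations, 2 members were lower under imatinib, Hist1h2ak and Hist1h2bc, and 0 higher, against 0.606% and 0.248% of all genes. The count was 0 with no filter, a pseudocount of 1, the replicate block or numbered copies kept apart. Scaled to the same median, 96 genes were lower and 66 higher in place of 61 and 25.

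The interaction asked whether the difference between populations differed between treatments. By limma, 0 members and 0% of all genes passed it in either direction. At an unadjusted p under 0.05, 25 of the 55 members were lower, that is with a larger fall under imatinib, and 0 higher, against 9.12% and 0.179% of all genes. These 25 comprised 5 of 5 H1, 10 of 13 H2A, 9 of 15 H2B, 0 of 10 H3 and 1 of 12 H4 genes. The H3 genes had few reads in DP and IMDP cells, which limits what the interaction can show for them. The median interaction was -1.44, beside -0.25 over all genes. The ratios of 5.18 and 14.0 were thus not shown to differ for any single gene.

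The make-up of the histone RNA was compared as the share of each class or block in a library's sum, with no test. The Hist1 cluster lies in 2 blocks of chromosome 13. Block A (chr13:21715763-22043676) holds 22 members and block B (chr13:23531050-23934156) holds 30. Block A made up 33.4%, 26.3% and 28.6% of the sum in DP and 36.6%, 38.5% and 38.3% in SP cells. Under imatinib it made up 28.0%, 23.2% and 18.8% in IMDP and 37.7%, 33.3% and 37.7% in IMSP cells. The G0M+ libraries were lower in both treatments without overlap. Block B ran the other way, from 47.7% to 54.5% in DP against 41.8% to 43.4% in SP cells, and from 51.4% to 58.6% in IMDP against 42.0% to 46.2% in IMSP cells. Summed over block A, SP cells stood 6.46-fold and IMSP cells 21.0-fold above their G0M+ counterparts, and over block B 4.37-fold and 11.4-fold. The Hist2 cluster (chr3:96219865-96270132) stood 5.30-fold and 12.6-fold above. By class, H4 made up 18.1% to 20.5% in IMDP cells and 12.2% to 13.7% in IMSP cells, and H2B 28.2% to 36.4% against 38.8% to 41.8%. In DP and SP cells the ranges of these classes overlapped.

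**Figure D4:**
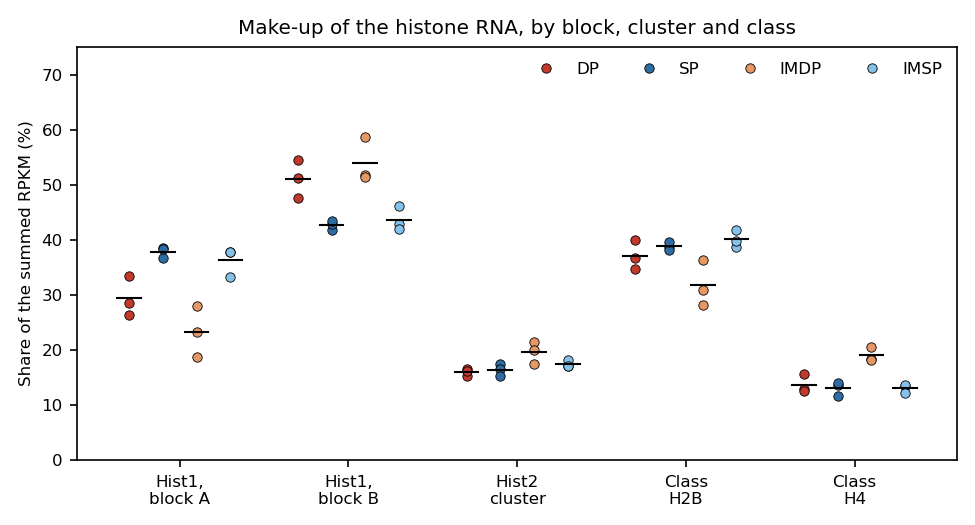
Share of the summed histone RPKM taken by Hist1 block A, Hist1 block B, the Hist2 cluster, class H2B and class H4, in percent per library; points are libraries and bars the means of 3. Block A takes 18.8% to 33.4% in the G0M+ libraries and 33.3% to 38.5% in the G0M- libraries.

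Many H2A and H2B genes lie head to head and share the space between their starts. There were 12 such pairs within 1000 bases, 11 of H2A with H2B and 1 of H2B with H3. In 10 pairs both partners were tested, and their fold changes differed by under 1 on the log2 scale in 7 of 10 for each comparison. The median difference was 0.70 in DP against SP and 0.43 in IMDP against IMSP. Hist1h2ag and Hist1h2bj, 269 bases apart, changed by -3.06 and -3.01 in DP against SP and by -3.97 and -3.97 in IMDP against IMSP. Hist1h2ae and Hist1h2bg, 175 bases apart, changed by -1.77 and -2.01, and by -3.65 and -3.66. Their levels were far apart, with means in SP cells of 4.09 RPKM for Hist1h2ae and 47.8 RPKM for Hist1h2bg. The widest gap was that of Hist1h2ap, which changed by -2.84 where Hist1h2br, 235 bases away, changed by 0.14. The reads of Hist1h2br cannot be divided from those of Hist1h2bq. Its value turned to -1.46 without SP library 2 and to 1.30 without SP library 3. Hist2h2ac lies 238 bases from Hist2h2be, which was at 0.335, 0.695 and 0.634 RPKM in DP and 0.638, 0.332 and 0.390 in SP cells, and with imatinib 1.28, 0.655 and 0.575 in IMDP and 0.789, 1.32 and 0.779 in IMSP cells. The populations overlapped for Hist2h2be, and it did not reach the filter. No 50-base window of it occurs in another histone gene, and its RPKM rests on a long model of 2667 bases.

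Hist2h2be is among 6 members known to give polyadenylated transcripts outside S phase. Of the other 5, 4 were lower in DP and 5 in IMDP cells, against 1.98% and 23.3% of all genes. Their medians of -1.67 and -2.89 stood beside -2.61 and -3.76 over all tested members. Hist3h2a, in the small cluster on chromosome 11, was at 5.40, 5.16 and 5.72 RPKM in DP and 47.3, 13.9 and 25.1 in SP cells (-2.21 ± 0.41, limma, adjusted p = 0.0132), and this call was lost without SP library 1 and without DP library 2 or 3. Hist1h2be changed by -1.40 in DP against SP (limma, adjusted p = 0.0662), and -2.64 when IMDP was compared with IMSP (limma, adjusted p = 0.000525). Of 4 histone genes known from testis, none was tested, and Hist1h2aa and Hist1h4m were at 0 in every library.

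Because histone genes resemble each other, the members were also sorted by how much of their transcript occurs elsewhere. The median share of 50-base windows found in another histone gene was 1.1% for H1, 78.9% for H2A, 42.1% for H2B, 57.2% for H3 and 34.2% for H4. The 19 members with under 25% of shared windows summed to 86.0 ± 28.9 RPKM in DP and 443 ± 71.3 in SP cells, and with imatinib 44.3 ± 14.7 in IMDP and 525 ± 107 in IMSP cells (SD, n = 3), ratios of 5.16 and 11.9. The other 46 gave ratios of 5.19 and 16.0. Among tested genes with under 25% of shared windows, 11 of 15 were lower in DP cells and 14 of 15 in IMDP cells. Of all genes tested, 1.98% and 23.3% were lower.

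Other genes of histone supply had medians closer to 0. Histone variants outside the clusters, which are made independently of S phase or replace core histones at particular sites, had 2 of 11 tested genes lower in DP and 5 of 11 in IMDP cells, against 1.98% and 23.3% of all genes. The medians were -0.43 and -0.71, beside -0.02 and -0.25 over all genes. Cenpa, the centromeric H3 variant, went from 16.9 ± 2.65 RPKM in SP to 4.60 ± 2.43 in DP cells and from 13.7 ± 1.47 in IMSP to 1.20 ± 0.23 in IMDP cells (SD, n = 3). Averaged over treatments it changed by -2.70 (limma, adjusted p = 1.8e-05), H2afx, the DNA damage variant, by -2.22 (adjusted p = 2.93e-05), and H2afz by -1.03 (adjusted p = 0.000345). None of the lists in this or the next paragraphs had a gene past the threshold in the higher direction in either comparison, by limma. At an unadjusted p under 0.05, 4 chaperone genes were lower in DP than in SP cells and 2 higher. For S phase genes these were 4 and 2 as well.

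Of 17 tested genes for histone gene transcription and 3' end processing, 0 were lower in DP cells, by limma (1 at an unadjusted p under 0.05), and 11 in IMDP cells, where 23.3% of all genes were lower. The medians were -0.12 and -0.55, beside -0.02 and -0.25 over all genes. Averaged over treatments, the strongest were Snrpf (-0.67, limma, adjusted p = 0.00322), Snrpd3 (-0.61, adjusted p = 0.00687) and Srrt (-0.43, adjusted p = 0.0126). The first 2 encode Sm ring proteins and the third a cap-complex protein. Slbp, the stem-loop binding protein, changed by -0.75 in IMDP against IMSP (limma, adjusted p = 0.0202). Of 16 histone mRNA decay genes, 0 were lower in DP, by limma (4 at an unadjusted p under 0.05), and 7 in IMDP cells, again against 23.3% of all genes, with medians of -0.16 and -0.44. Averaged over treatments the strongest were Lsm2 (-1.02, limma, adjusted p = 0.00535), Lsm4 and Lsm3, members of the Lsm ring. Of 23 chaperone and assembly genes, 1 was lower in DP (Hjurp) and 13 in IMDP cells, against 1.98% and 23.3% of all genes, with medians of -0.09 and -0.65. Averaged over treatments the strongest were Asf1b (-1.85, limma, adjusted p = 0.00031), Hjurp (-1.10, adjusted p = 0.000325) and Ssrp1 (-0.57, adjusted p = 0.0025).

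The S phase reference genes had a median near 0 in vehicle-treated cells. Of 23 tested replication genes, only Ccna2 was lower in DP cells (-3.02, limma, adjusted p = 0.018), and the median of the list was 0.05, beside -2.61 for the histone genes and -0.02 for all genes. Under imatinib, 14 of 23 were lower in IMDP cells, against 23.3% of all genes, with a median of -0.71, beside -3.76 for the histone genes and -0.25 for all genes. Ccna2 encodes cyclin A2, which acts in S phase and beyond. Rrm1, a subunit of ribonucleotide reductase, was at 32.3 ± 5.88 RPKM in DP and 49.8 ± 2.96 in SP cells, and with imatinib 19.0 ± 5.19 in IMDP and 55.7 ± 7.48 in IMSP cells (SD, n = 3). Averaged over treatments it changed by -1.10 (limma, adjusted p = 0.000203), and Fen1, a flap nuclease of lagging strand synthesis, by -0.92 (limma, adjusted p = 0.00145).

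**Figure D5:**
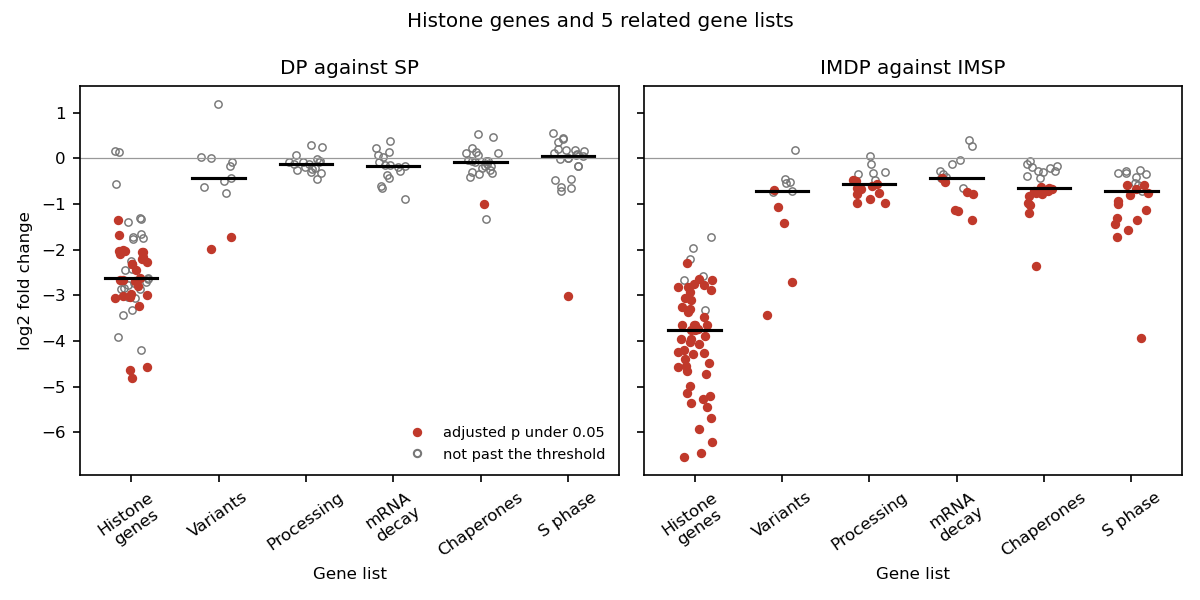
Log2 fold change of the tested histone genes and of the genes of 5 related lists, in DP against SP (left) and IMDP against IMSP (right); filled points passed an adjusted p of 0.05 and bars are medians. The histone medians of -2.61 and -3.76 lie below those of every other list, which range from -0.43 to 0.05 in DP against SP and from -0.71 to -0.44 in IMDP against IMSP.

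The genes whose log2 values followed the histone sum most closely over the 12 libraries were Polq (Pearson's r = 0.989), Mki67 (0.988), Incenp (0.984), Spag5 (0.984) and Foxm1 (0.982). These correlations are descriptions over libraries that share groups. Mki67, the Ki-67 gene, was at 14.7 ± 5.70 RPKM in DP and 54.2 ± 3.42 in SP cells, and with imatinib 8.16 ± 1.67 in IMDP and 61.1 ± 8.39 in IMSP cells (SD, n = 3).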

How the data were processed

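Transcripts were measured in 12 libraries of 100 sorted cells, 3 per group. The reads had been mapped by the authors to GRCm38, and RPKM per feature were deposited. The study's methods name CLC Genomics Workbench and its reporting summary HISAT2 and featureCounts. Whether counting used strand, how reads shared by copies were treated, and whether a further normalization is part of the RPKM are not given in the sources used here.

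Values of a feature were whole multiples of what 1 read is worth, which gave reads for 17732 of 17735 features above 0 (tolerance 0.01 of a read). Numbered copies of a gene were summed. The 10072 genes that reached 1 RPKM in 3 or more libraries entered limma (3.58.1, R 4.3.3), fitted to log2(RPKM + 0.1) as 4 means with a variance trend. Tests were two-sided, and p-values were adjusted over all genes tested by Benjamini-Hochberg, with calls made under 0.05. The fit was tested on simulated data. Tables and figures were made with matplotlib 3.10.9, pandas 2.3.3, numpy 2.4.6 and Python 3.11.15. Sums over members carry no test. Positions and transcripts came from GENCODE M21 and promoters from RefSeq (GRCm38.p6), held for 60 members. PCR copies were not marked, so intervals and floors cover counting error only.

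The replicate numbers in the sample titles paired IMDP with IMSP libraries (correlations of their deviations from the group means 0.429, 0.655 and 0.457) but not DP with SP libraries (-0.192, -0.298 and -0.0976). Neighbouring library numbers in the sample descriptions paired the latter (0.495, 0.512 and 0.519).

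The members, gene lists and rule for named genes were chosen with earlier results of these data known. By that rule, the text names in each class the 3 members of highest mean RPKM and the tested member closest to no difference in IMDP against IMSP, in each pairwise comparison the 3 largest falls and rises among members past the threshold, any member called against the majority, members known for polyadenylated transcripts, in each list the 3 genes of smallest adjusted p for population, and the 5 genes most like the sum. Other members named were chosen after their values were seen. The alternatives concerned low values, the pseudocount, which groups were fitted together, a block for replicate or library number, scaling, numbered copies, the trend, limma-voom on recovered reads, and each library left out.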

Additional observations from a re-analysis of the deposited data

How the results depend on the processing

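No member was called higher in any fit, and no member count in IMDP against IMSP, IMSP against SP or the population average moved by over 1.5 times. In DP against SP, the 28 calls became 45 with the library-number block, under which calls over all genes went from 199 lower and 29 higher to 560 and 420. In IMDP against DP, the 3 calls became 10 at 5 RPKM or more, 7 with the replicate block, and 0 with only these groups, median scaling, limma-voom on recovered reads or no trend. The 2 calls of treatment averaged over populations became 1 at a pseudocount of 0.01 and 0 with no filter, a pseudocount of 1, the replicate block, limma-voom, no trend or numbered copies kept apart. With 1 library left out, the counts ran from 18 to 33 (DP against SP, 18 without SP library 1), 44 to 51 (IMDP against IMSP), 0 to 9 (IMDP against DP; 9 without IMDP library 1, 1 without DP library 3, 0 without DP libraries 1 or 2, IMDP library 3, SP library 1 or IMSP library 3), 0 to 2 (treatment average) and 0 to 1 (interaction, 1 without IMDP library 2). The replicate block gave 31 in DP against SP, 50 in IMDP against IMSP and 53 for the population average. The lower calls over all genes in IMDP against IMSP were 2342, and 940 with median scaling, 1398 with only these groups and 3618 with the library-number block. No log2 ratio of the sums moved by over the pooled SD of 0.36, with ranges of -2.65 to -2.21 in DP against SP, -4.04 to -3.49 in IMDP against IMSP, -1.45 to -0.93 in IMDP against DP and 0.05 to 0.38 in IMSP against SP. Hist1h2br in DP against SP turned from 0.14 to -0.25 at a pseudocount of 1, and ran from -1.46 to 1.30 with 1 library left out (-0.35 without DP library 2, -1.46 without SP library 2). Where no cause is named, the cause was not tested. Members with few reads in IMDP cells limit these folds.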
